A study of Mus musculus with 15 samples.

Results

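The imprinted genes at the distal end of mouse chromosome 7 were followed through RNA and promoter methylated-DNA measurements in mouse embryonic stem (ES) cells. The 7 genes Cdkn1c, H19, Igf2, Phlda2, Kcnq1, Slc22a18 and Cd81 were taken by name, with every probe whose gene name in the scanner files equals one of them. They are 7 of 31075 gene names on the arrays, and they gave 11 of 41174 expression probes and 34 of 80567 promoter probes. The study set TKO, an ES cell line deficient in the DNA methyltransferases Dnmt1, Dnmt3a and Dnmt3b, against J1, a wild-type ES cell line. Both lines were grown with LIF and serum and kept free of feeder cells for 2 passages before harvest. RNA of both lines was hybridised together on 3 expression arrays. For the promoter arrays, DNA was enriched by methylated DNA immunoprecipitation (MeDIP, a pull-down with an antibody against methylated cytosine) from 2 ug of genomic DNA, and both lines were again hybridised together, on 7 arrays for each of 2 sets of promoters. The design text describes the MeDIP replicates as different passages and the RNA as coming from the same cultures, but the labels give passage 37 for J1 on both arrays 1 and 3 of part 1 and no passage for the others. Only 1 line of each genotype was measured, so p-values cover the spread between arrays and not between lines. Each array gives 1 ratio of TKO over J1, and the number of arrays limits the precision.

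Imprinted genes are transcribed mainly from the copy inherited from one parent, and the choice is marked by DNA methylation at imprinting control regions. The distal chromosome 7 cluster has a pair of such domains. In one, H19, a noncoding RNA, is transcribed from the maternal copy and Igf2, a fetal growth factor, from the paternal copy, and the control region that lies upstream of H19 is methylated on the paternal copy. In the other, the control region is the promoter of the long noncoding RNA Kcnq1ot1 inside Kcnq1, which is methylated on the maternal copy, and the paternally transcribed RNA silences neighbours such as Cdkn1c, Phlda2 and Slc22a18 on the paternal copy. The arrays read total RNA and total pulled-down DNA and cannot tell the parental copies apart.

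Promoter sequences are shown because the density of CG dinucleotides, the sites that the missing enzymes methylate and that MeDIP depends on, differs widely between these genes. RefSeq (GRCm38.p6) sequences from 250 bases before to 50 bases after the start were given for 4 of the 7 genes and for Kcnq1ot1. They are printed 5′ to 3′ on the strand of the gene, with every CG in capitals, for Phlda2 (chr7:143502475-143502774, minus strand), Slc22a18 (chr7:143473539-143473838, plus strand) and Kcnq1ot1 (chr7:143296498-143296797, minus strand).
Phlda2: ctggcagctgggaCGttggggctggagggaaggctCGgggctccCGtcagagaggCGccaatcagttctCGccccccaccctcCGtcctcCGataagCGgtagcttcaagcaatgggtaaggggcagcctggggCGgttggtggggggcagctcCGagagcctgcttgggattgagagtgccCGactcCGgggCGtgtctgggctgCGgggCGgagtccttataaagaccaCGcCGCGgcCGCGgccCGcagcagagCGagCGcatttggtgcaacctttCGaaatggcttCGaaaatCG
Slc22a18: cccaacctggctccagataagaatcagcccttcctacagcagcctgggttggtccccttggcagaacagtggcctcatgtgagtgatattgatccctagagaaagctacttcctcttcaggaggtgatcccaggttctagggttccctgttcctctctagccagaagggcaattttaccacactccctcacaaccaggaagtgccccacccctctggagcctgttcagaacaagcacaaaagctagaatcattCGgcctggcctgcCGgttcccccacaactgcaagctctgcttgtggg
Kcnq1ot1: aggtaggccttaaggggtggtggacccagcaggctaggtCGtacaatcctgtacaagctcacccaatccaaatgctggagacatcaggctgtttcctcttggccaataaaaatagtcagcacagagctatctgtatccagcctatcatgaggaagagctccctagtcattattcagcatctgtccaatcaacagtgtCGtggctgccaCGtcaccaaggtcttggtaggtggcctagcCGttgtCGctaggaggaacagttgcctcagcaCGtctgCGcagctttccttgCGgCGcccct
The Phlda2 window held 26 CG, a number that 16.9% of the 32851 promoter windows in the table reach. The Slc22a18 window held 2, and 23.3% of windows hold that many or fewer. The Kcnq1ot1 window held 9, against a median of 7 over all windows. The Cd81 window (chr7:143052500-143052799, plus strand) held 23 CG. Igf2 has 4 annotated starts in the table, whose windows held 2, 14, 24 and 7 CG in the direction of transcription. Windows of Cdkn1c, H19 and Kcnq1 were not used here.

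The direction of both ratios rests on dye labels. On the expression arrays the labels allow either order, and the likely one puts J1 in Cy5 on arrays 1 and 3 and in Cy3 on array 2, whose dyes were swapped. Read this way, RNA of all 3 deleted enzymes was lower in TKO, with a log2(TKO/J1) of -2.50 ± 0.19 for Dnmt3b (SD, n = 3), -2.36 ± 0.18 for Dnmt3a and -1.07 ± 0.25 for Dnmt1 (SD, n = 2 each). Whether these probes lie in the deleted parts was not checked. On the MeDIP arrays the labels put TKO in Cy5 and J1 in Cy3 throughout, without a swap, so dye and line cannot be told apart there. The promoters of Asz1 and Sycp3, germ cell genes known to carry methylation in wild-type ES cells, were chosen after their values were seen and ran toward labelled TKO, at 0.65 ± 0.19 and 0.34 ± 0.11 (SD, n = 7). MeDIP ratios are therefore called labelled TKO over labelled J1, and no side is taken to show which line is methylated. The share of probes well above background was 38.6% to 66.8% per channel in the expression data and 88.2% to 99.7% in the MeDIP data. Expression array 3 had the lowest share and 8386 spots marked as uneven, which removed its spot for several of the genes below.

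Cdkn1c and H19 had more RNA in TKO than in J1, by about 3.5-fold and 3.2-fold. Igf2, Phlda2 and Cd81 did not pass the test in either direction. Kcnq1 and Slc22a18 did not enter it, as neither line was flagged as well above background on array 3. A gene entered where its brightest probe was well above background in TKO or in J1 on all 3 arrays, and it was called where the limma Benjamini-Hochberg adjusted p over all 11522 genes tested was under 0.05. Some genes named below entered through 1 line only, so their direction is not independent of this filter. They include Afp, Apoa1, Ttr, Dusp8 and Igfbp6 through TKO, and Dnmt3a, Impact and Cdkn1b through J1. So 2 of the 5 genes tested were higher and 0 lower, in a comparison where 16.9% of all genes tested were called higher, 16.2% lower and 33.0% in either direction. With 5 genes, such a count cannot be told from that background. With a change of at least 2-fold required as well, the same 2 of 5 genes were higher and 0 lower. Over all genes tested 1.68% were higher and 0.746% lower by this rule. That background was 4.13% and 2.34% with Agilent processed signals in place of normexp and loess. The genes and the lists below were chosen with earlier results of these data known. Setting their counts against such shares is therefore no test of enrichment. In these bulk samples, a change in the share of cells that make an RNA and a change in the RNA per cell cannot be told apart.

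Cdkn1c encodes p57, an inhibitor of cyclin-dependent kinases that restrains growth of the fetus and placenta and is transcribed from the maternal copy. Its probe gave Agilent processed signals (arbitrary units) of 27896, 23585 and 15511 in TKO on arrays 1 to 3, against 8041, 5817 and 5602 in J1. The lowest of the TKO signals lay well above the highest of the J1 signals, so the lines did not overlap. On the loess-normalised scale log2(TKO/J1) was 1.72 on array 1 and 1.90 on array 2. The spot of array 3 was marked as uneven and left out, although it pointed the same way, at 1.30. The mean was 1.81 ± 0.12 (SD, n = 2; limma adjusted p = 9.66e-06), with a 95% interval of the ratio from 2.96-fold to 4.15-fold, and 40 of the genes tested had a higher log2 ratio. With uneven spots kept it was 1.64 ± 0.30 (SD, n = 3).

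H19 was read by a pair of probes. The brighter one gave signals of 65414, 33882 and 28095 in TKO against 17865, 6785 and 13102 in J1 on arrays 1 to 3. All 3 arrays were higher in TKO and the groups did not overlap, but array 3 showed the smallest difference. Its log2(TKO/J1) was 1.84, 2.20 and 1.06 on the 3 arrays, with a mean of 1.70 ± 0.59 (SD, n = 3; limma adjusted p = 1.00e-04), which is 3.25-fold with a 95% interval from 2.48-fold to 4.25-fold. The other probe gave signals of 38678, 16053 and 11393 in TKO against 5214, 1910 and 3340 in J1. Its log2 ratio was 2.76 and 2.68 on arrays 1 and 2, and 1.5 on the uneven spot of array 3. The probes thus differed in the size of the ratio but not in its direction. In a fit over all probes, the second probe was at 2.72 ± 0.06 (SD, n = 2; limma adjusted p = 2.35e-06).

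**Figure D1:**
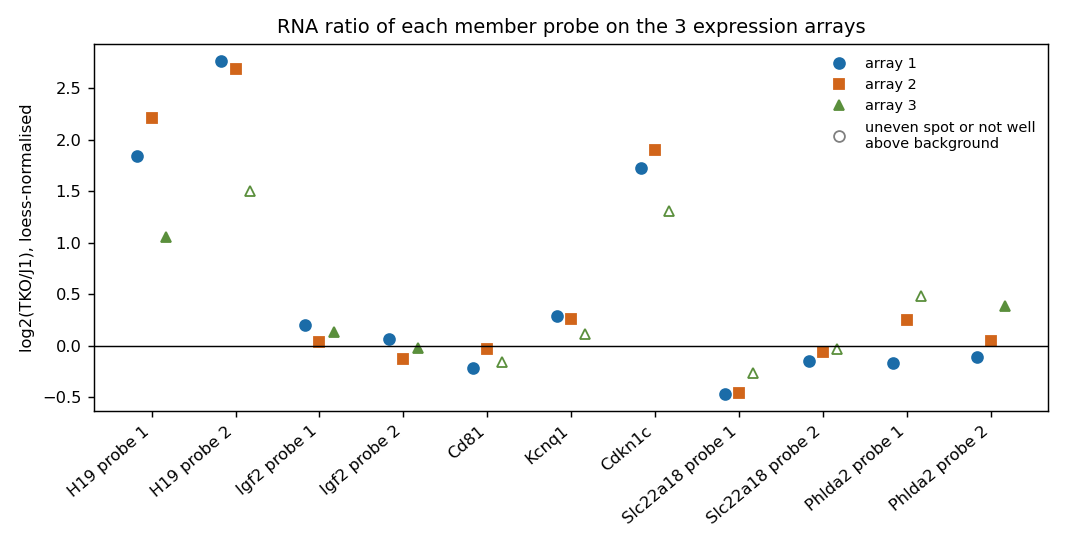
Loess-normalised log2(TKO/J1) of RNA for the 11 probes of the 7 genes, one point per expression array, with open symbols for spots that were uneven or not well above background. Both H19 probes and the Cdkn1c probe lie above 1 on all 3 arrays, and the other probes lie between -0.47 and 0.48.

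Igf2, whose control region is shared with H19, did not pass the test. Its brighter probe gave signals of 1246, 955 and 3048 in TKO against 1034, 929 and 2562 in J1, so the lines overlapped and arrays differed more than lines did. Log2(TKO/J1) was 0.20, 0.04 and 0.13, with a mean of 0.13 ± 0.08 (SD, n = 3; limma adjusted p = 0.275). Its 95% interval of -0.06 to 0.31 excludes a change as large as that of H19. The second Igf2 probe averaged -0.03 ± 0.10 (SD, n = 3). A test of the difference between H19 and Igf2 was not run.

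Phlda2, which limits growth of the placenta and is transcribed from the maternal copy, gave signals of 24181, 23533 and 18343 in TKO against 27192, 19614 and 12417 in J1. The lines overlapped, and array 1 ran the other way from arrays 2 and 3. Log2(TKO/J1) was 0.04 ± 0.29 over arrays 1 and 2 (SD, n = 2; limma adjusted p = 0.831), with a 95% interval of -0.24 to 0.33, and 0.48 on the uneven spot of array 3. The second probe averaged 0.11 ± 0.25 (SD, n = 3). Cd81, a tetraspanin of the cell surface, was bright in both lines, with signals of 83729, 76230 and 72562 in TKO against 95926, 77192 and 78539 in J1. TKO was the lower line on each array by a small margin and the ranges of the lines overlapped. Log2(TKO/J1) was -0.13 ± 0.13 over arrays 1 and 2 (SD, n = 2; limma adjusted p = 0.404).

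Kcnq1, a potassium channel subunit, was dim. Signals were 654, 494 and 264 in TKO against 429, 301 and 161 in J1, with both lines not well above background on array 3. TKO was higher within each array, although the ranges of the lines overlapped, with a log2(TKO/J1) of 0.29, 0.26 and 0.12. The authors' deposited table corresponds to a larger log2 ratio for Kcnq1, 0.68. With no filter on dim probes, Kcnq1 was at 0.22 ± 0.09 (SD, n = 3; limma adjusted p = 0.0521). Slc22a18, an organic cation transporter, gave signals of 3171, 2426 and 10649 in TKO against 4630, 3662 and 6061 in J1. The lines overlapped, and the processed signals of array 3 ran the other way from arrays 1 and 2. They were the highest of the 3 arrays, although neither line was flagged as well above background there. After normexp and loess log2(TKO/J1) was -0.47, -0.46 and -0.26, so the sign of array 3 depends on the processing. With no filter Slc22a18 was at -0.40 ± 0.12 (SD, n = 3; limma adjusted p = 0.0172). Its other probe averaged -0.08 ± 0.06 (SD, n = 3), and the authors' deposited table corresponds to -0.11 for the first probe and -0.28 for the second.

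**Figure D2:**
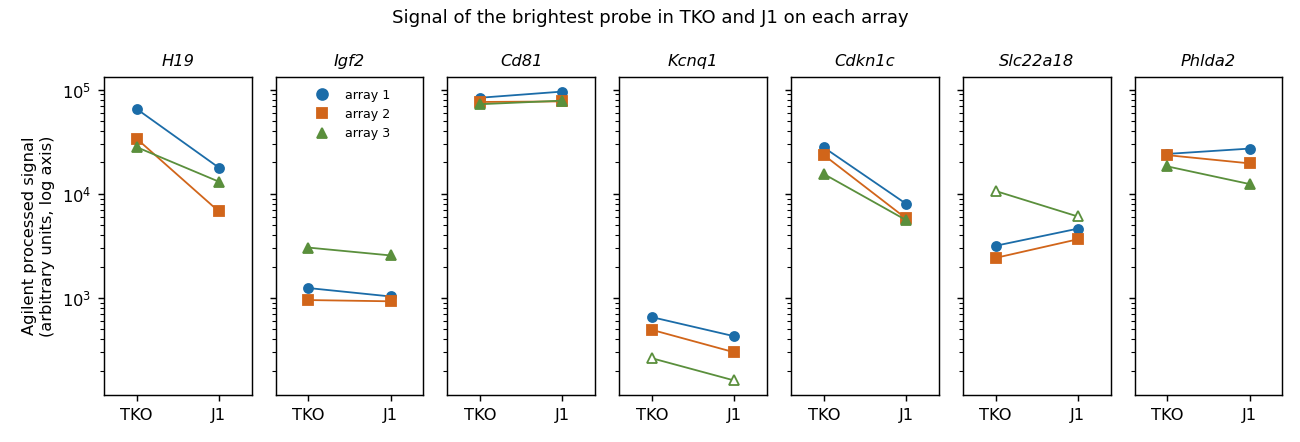
Agilent processed signal (arbitrary units, log axis) of the brightest probe of each gene in TKO and J1, with a line joining the pair of values from one array and open symbols where a value is not well above background. H19 and Cdkn1c slope down towards J1 on all 3 arrays, while Slc22a18 slopes down on array 3 and up on the other two.

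Around these genes, 22 neighbours of the region were listed and 14 were tested, of which 4 were higher and 1 lower in TKO at the same threshold (median log2 ratio 0.05, against -0.01 over all genes tested). Over all genes tested 16.9% were higher and 16.2% lower, and the counts of this and the later lists stand against these shares. The lower one was Kcnq1ot1, the noncoding RNA that silences the Cdkn1c domain. Its log2(TKO/J1) was -1.05, -0.54 and -0.55 on arrays 1 to 3, with a mean of -0.72 ± 0.29 (SD, n = 3; limma adjusted p = 0.00112). Kcnq1ot1 and Cdkn1c differed in direction in these bulk samples, and a link between them was not tested. The 4 higher genes lay together at the other end of the region, beyond H19. Tnni2, a troponin of skeletal muscle, was at 0.99 ± 0.07 and Dusp8, a phosphatase of MAP kinases, at 0.56 ± 0.35. Ctsd, a lysosomal protease, was at 0.46 ± 0.23 and Tnnt3, another troponin, at 0.37 ± 0.02 (SD, n = 3 each). Dusp8, Ctsd and Tnnt3 were not called when arrays were centred on the median in place of loess (limma adjusted p = 0.177, 0.842 and 0.426), while with Agilent processed signals Dusp8 was at 1.52 and Tnnt3 at 1.24. Nap1l4, a histone chaperone beside Phlda2, was at 0.05 ± 0.17 and Tssc4, between Cd81 and Kcnq1ot1, at -0.05 ± 0.14 (SD, n = 2 each), and neither passed. Ins2, the insulin gene beside Igf2, was at -0.13 ± 0.11 (SD, n = 3; limma adjusted p = 0.269). Ascl2, a placental transcription factor, and Th, the enzyme that starts dopamine synthesis, were not well above background on enough arrays to be tested.

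**Figure D3:**
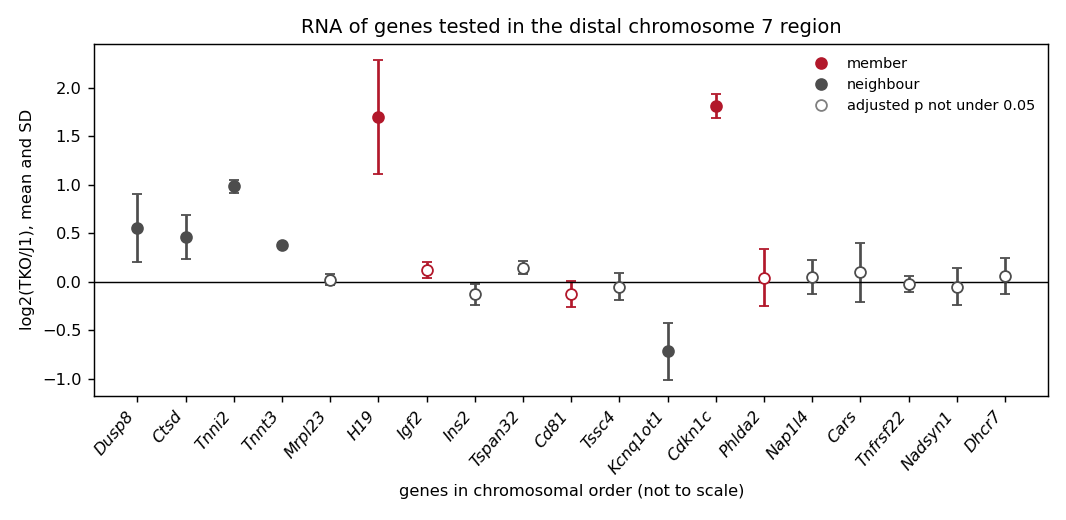
Mean log2(TKO/J1) of RNA with SD for the 19 genes of the region that were tested, in chromosomal order and not to scale, with the chosen genes in red, their neighbours in grey and filled symbols for those past the adjusted p of 0.05. H19 and Cdkn1c stand above 1 and Kcnq1ot1 is the lowest at -0.72.

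Among genes that work with Igf2, 11 of the 17 on the array were tested, 2 were higher and 2 lower. Over all genes tested 16.9% were higher and 16.2% lower, and 11 genes are too few to tell such counts from that background. Igf2r, the receptor that clears Igf2 and is imprinted on another chromosome, was at 0.62 ± 0.22 (SD, n = 3), and Igfbp6, a binding protein, at 0.77 ± 0.35 (SD, n = 3). Igfbp2, another binding protein, was at -0.79 ± 0.46 and Igf1r, the receptor that carries the growth signal, at -0.34 ± 0.12 (SD, n = 2 each). With median centring Igf2r was at 0.33 and Igf1r at -0.30 and neither was called (limma adjusted p = 0.421 and 0.605), with no filter on dim probes neither Igfbp2 nor Igf1r was (0.0673 and 0.0557), and with Agilent processed signals Igfbp6 was at 1.52. Of 12 other cyclins, their kinases and inhibitors tested, 1 was called. This was Cdkn2c, an inhibitor of Cdk4 and Cdk6, at 0.32 ± 0.07 (SD, n = 2; limma adjusted p = 0.0437), and it was not called with median centring (limma adjusted p = 0.513). Cdkn1a and Cdkn1b, the inhibitors most closely related to Cdkn1c, were at -0.04 ± 0.02 (SD, n = 2) and -0.19 ± 0.04 (SD, n = 3) and did not pass. With Agilent processed signals Cdkn1b was at -0.59 and was called lower (limma adjusted p = 5.64e-04).

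Imprinted genes on other chromosomes or elsewhere on chromosome 7 were called in both directions, 10 higher and 5 lower of 27 tested (median log2 ratio 0.23). Among all genes tested 16.9% were higher and 16.2% lower. Median centring left 6 higher and 3 lower of the 27. Without array 1, without array 2 or with a dye term only 16 could be tested, and 5 of these were higher and 3 or 4 lower. The highest were Dlk1, Rian and Meg3, which share 1 imprinted domain, at 1.33 ± 0.07 (SD, n = 3), 1.14 ± 0.08 and 0.99 ± 0.21 (SD, n = 2 each). The lowest were Ppp1r9a at -0.76 ± 0.22 (SD, n = 3), Impact at -0.57 ± 0.30 (SD, n = 2) and Mcts2 at -0.54 ± 0.18 (SD, n = 3), of which Impact was not called with median centring (limma adjusted p = 0.180). In the main fit Cdkn1c and H19 thus had larger means than any of these. With Agilent processed signals Peg10, another of the 27, was at 1.78, above H19 at 1.76 and below Cdkn1c at 1.91. On array 3 alone Dlk1 was at 1.27 and the brighter H19 probe at 1.06. Among 17 tested genes that set or read imprints, 2 were higher and 5 lower, with the deleted enzymes among the lower ones. Dnmt3l, the cofactor of Dnmt3a, was at 0.79 ± 0.11 and Dppa3, which protects imprints after fertilisation, at 0.73 ± 0.21, while Zfp57, a zinc finger protein that keeps imprints methylated, was at -0.38 ± 0.07 (SD, n = 3 each). None of Dnmt3l, Dppa3 and Zfp57 was called with median centring, at 0.42, 0.51 and -0.50 (limma adjusted p = 0.254, 0.134 and 0.152).

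H19 and Cdkn1c are abundant in placenta and extraembryonic tissue, and markers of such cells were looked at beside markers of other cell types. Phlda2, which limits growth of the placenta, was not called in RNA, at 0.04 ± 0.29 (SD, n = 2). Of 8 trophoblast markers tested, 7 were higher and 0 lower, led by the keratins Krt8 at 2.90 ± 0.30 and Krt18 at 2.36 ± 0.20 (SD, n = 3 each). Their summed signal per array was 352216 to 612242 in TKO and 82622 to 126502 in J1. Of 12 primitive endoderm markers tested, 12 were higher, led by Afp at 3.86 ± 0.25 (SD, n = 2) and Dab2 at 2.39 ± 0.27 (SD, n = 3), with summed signals of 108443 to 132117 in TKO and 47160 to 58354 in J1. Afp was well above background on 3 arrays in TKO and 2 in J1, and Apoa1 and Ttr on 3 and 0. These genes entered the test only through TKO, so their calls as higher are not independent of the filter. Of the other trophoblast markers, Cdx2 and Tpbpa were well above background on 2 arrays in TKO and on 0 in J1, and Elf5 on 1 in TKO and on 0 in J1. Eomes, Hand1 and Ascl2 were well above background on 2 arrays in both lines, Gcm1 on 0 in TKO and on 1 in J1, and Tfap2c was tested and not called (-0.15 ± 0.07, SD, n = 2). Of the primitive endoderm markers, Apoa1 and Ttr were well above background on 3 arrays in TKO and Sox7 on 2, against 0 in J1 for each. Foxa2, Cubn and Pdgfra were so on 2 arrays in both lines, Gata4 on 1 in both, and Hnf4a on 2 in TKO and on 1 in J1. Without array 1, without array 2 or with a dye term only 7 primitive endoderm markers could be tested, and 7, 6 and 6 of these were higher. Of 8 pluripotency markers tested, 1 was higher and 5 lower, with Nr0b1 at -1.55 ± 0.22 (SD, n = 3) and Tdh at -1.05 ± 0.05 (SD, n = 2), and summed signals of 226674 to 370774 in TKO and 290668 to 418774 in J1. Fibroblast markers gave 4 higher and 1 lower of 6 tested, with S100a4 at 1.42 ± 0.07 and Lox at 1.37 ± 0.17 (SD, n = 2 each), though their summed signals overlapped, at 68092 to 94258 in TKO and 66832 to 105745 in J1. Mesoderm and ectoderm markers gave 2 higher and 1 lower of 4 tested, with Nes at 0.91 ± 0.08 (SD, n = 2) and Gsc at 0.56 ± 0.17 (SD, n = 3; not called with median centring, limma adjusted p = 0.341), and summed signals of 5188 to 12132 in TKO and 3973 to 8368 in J1. The part of these markers in the ratios of H19 and Cdkn1c was not tested.

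Likeness to Cdkn1c was ranked among tested genes with a RefSeq symbol, without placeholder names (Rik, Gm or LOC). The genes of this set whose ratios on arrays 1 and 2 lay closest to those of Cdkn1c were Prl3d1, Cited1 and Tex101. Prl3d1, a prolactin-family hormone of trophoblast giant cells, was at 1.81, within a root mean square difference of 0.03 from Cdkn1c over the 2 arrays. Cited1, a transcriptional cofactor of placenta and other tissues, was at 1.85 with a difference of 0.04. Tex101, a germ cell surface protein, was at 1.78 with a difference of 0.05. On array 3, left out of this likeness, Prl3d1 was at 1.86, Tex101 at 1.80 and the uneven Cdkn1c spot at 1.30. With Agilent processed signals Prl3d1 was at 3.09 and Cdkn1c at 1.91. These likenesses thus describe 2 arrays under the main processing and carry no test.

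On the MeDIP arrays 6 of the 7 genes had probes, all on the part 1 arrays, while H19 had none by name and was not analysed there. A promoter region was the set of at least 3 probes that share a gene name, with no gap over 2000 bp, and its value was the mean over probes. No region of these genes reached the size used for a call, a log2 ratio at least 0.5 from 0 with a limma adjusted p under 0.05. Of all 14755 regions, 2.64% did so toward labelled TKO and 0.0813% toward labelled J1. At an adjusted p under 0.05 and any size, 1 of the 6 ran toward labelled TKO and 3 ran toward labelled J1. Over all regions 31.2% and 25.5% did so, and 6 regions are too few to tell such counts from that background. All 6 means were within 0.2 of 0, and SDs over arrays ran from 0.03 to 0.12.

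Cdkn1c had the lowest region mean of the 6, although with normexp and median centring Igf2 was lower. Its log2(labelled TKO/labelled J1) ran from -0.28 to -0.10 over the 7 arrays with a median of -0.15. All 7 arrays lay on the labelled J1 side. The mean was -0.18 ± 0.07 (SD, n = 7; limma adjusted p = 6.36e-04), and 8.40% of all regions were lower. Slc22a18 ran from -0.16 to -0.07 with a median of -0.12, again with all 7 arrays below 0, and averaged -0.13 ± 0.03 (SD, n = 7; limma adjusted p = 0.00194). With normexp background correction and median centring, Cdkn1c was at -0.09 (limma adjusted p = 0.0747) and Slc22a18 at -0.05 (limma adjusted p = 0.207), so neither passed there, while Igf2 was at -0.10 (limma adjusted p = 0.0125).

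Igf2 ran from -0.20 to -0.01 with a median of -0.07, below 0 on all 7 arrays, and averaged -0.09 ± 0.07 (SD, n = 7; limma adjusted p = 0.0296). Without array 4, 5 or 7 its adjusted p was 0.0572, 0.0865 or 0.0985. Kcnq1 was the one region called on the labelled TKO side. It ran from -0.08 to 0.30 with a median of 0.12, with 6 of 7 arrays above 0 and array 2 below, and averaged 0.13 ± 0.12 (SD, n = 7; limma adjusted p = 0.0224). Without array 3, 5 or 7 its adjusted p was 0.0644, 0.0628 or 0.0534. For the arrays labelled with one J1 passage, the calls of Cdkn1c, Slc22a18 and Igf2 were kept without array 1 and without array 3, and that of Kcnq1 without array 1. Cd81, whose probes lay 380 to 1166 bp past the start, averaged 0.04 ± 0.06, with 6 of 7 arrays above 0 and a 95% interval of -0.02 to 0.11 (SD, n = 7; limma adjusted p = 0.258). It passed with normexp and median centring, at 0.10 (limma adjusted p = 0.0276). Phlda2 averaged -0.02 ± 0.04 with a 95% interval of -0.08 to 0.04 (SD, n = 7; limma adjusted p = 0.589). Cdkn1c, called higher in RNA, Igf2, tested in RNA and not called, and Slc22a18, not tested in RNA, all lay on the labelled J1 side. A relation between RNA and MeDIP over these genes was not tested.

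**Figure D4:**
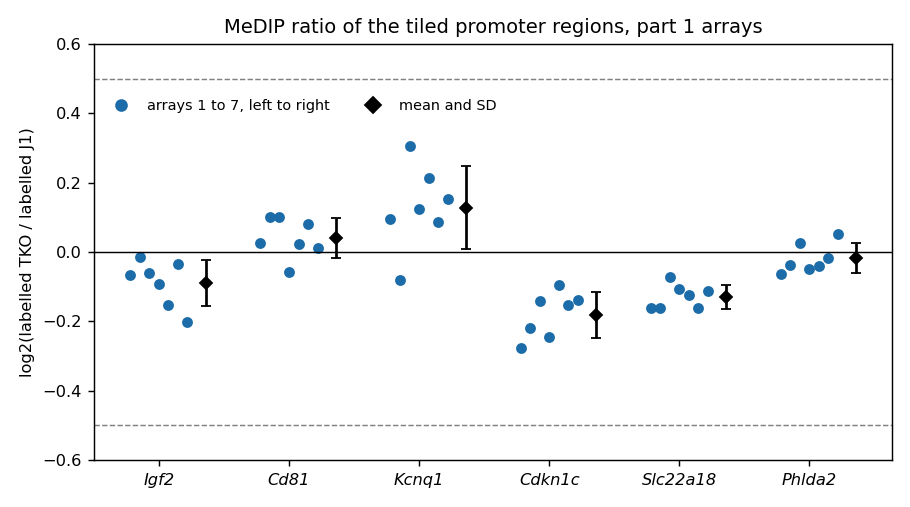
Log2(labelled TKO/labelled J1) of the tiled promoter regions of 6 genes on the 7 part 1 arrays (blue) with mean and SD (black) and dashed lines at the size of 0.5 used for a call. No array of any of the 6 reaches a dashed line, and all 7 arrays lie below 0 for Igf2, Cdkn1c and Slc22a18.

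Single probes differed from one another within several regions, which the region means do not show. Of the 34 probes, 5 ran toward labelled TKO and 10 toward labelled J1 at an adjusted p under 0.05 over all 80567 probes, where 22.1% and 19.7% of all probes did. The 34 probes are too few to tell such counts from that background. With the size of 0.5 required, 1 of the 34 passed toward labelled TKO and 0 toward labelled J1, against 7.11% and 0.851% of all probes. Distances are those the file annotation gives from the start of the gene, negative before it.

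At Cdkn1c the 5 probes between -839 and 151 bp were alike, with means from -0.27 to -0.13, and 3 of them passed on the labelled J1 side. The lowest was the probe at -286 bp, at -0.27 ± 0.16 (SD, n = 7; limma adjusted p = 0.00761). With normexp and median centring 0 of the 5 passed. At Kcnq1 the ratio changed along the region. The 4 probes from -1603 to -469 bp had means between 0.22 and 0.25, and 3 of these passed on the labelled TKO side, while the probes at -161 and 171 bp were at -0.04 ± 0.07 and -0.12 ± 0.16 (SD, n = 7 each). The exception among the 4 was the probe at -1000 bp, at 0.23 ± 0.28 (limma adjusted p = 0.0766), which was below 0 on array 2. Over all named probes the median log2 ratio was likewise higher upstream, at 0.08 beyond 600 bp before the start. It was -0.05 in the last 300 bp before the start and -0.06 in the first 300 bp after it. The called probes within 300 bp of the start at Cdkn1c, Slc22a18, Phlda2 and Igf2 lay on the same side as these medians.

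Slc22a18 held opposite probes within one region. The probe at -613 bp was at 0.27 ± 0.16, above 0 on all 7 arrays (SD, n = 7; limma adjusted p = 0.00797). The probes at -135 and 115 bp, which flank the start given in the file annotation, were at -0.34 ± 0.11 and -0.30 ± 0.11, below 0 on all 7 arrays (limma adjusted p = 0.00113 and 0.00214). Phlda2 was similar in shape. Its probe at -428 bp ran from 0.00 to 1.26 over the arrays with a median of 0.63, and averaged 0.53 ± 0.45 (SD, n = 7; limma adjusted p = 0.0162). This was the only one of the 34 past the size of 0.5, and arrays 1 and 4 lay at 0.00 and 0.03. The Phlda2 probe at -158 bp, inside the CG-rich window printed above if the file and RefSeq starts coincide, was at -0.30 ± 0.18, below 0 on all 7 arrays (SD, n = 7; limma adjusted p = 0.00679). The opposite probes left the Phlda2 region mean near 0. At Igf2 the probes at 83 and 334 bp passed on the labelled J1 side, at -0.19 ± 0.09 and -0.28 ± 0.17 (SD, n = 7 each), and the 4 probes before the start did not pass. At Cd81 the probe at 693 bp was at -0.25 ± 0.15 (SD, n = 7; limma adjusted p = 0.00904) and the other 4 did not pass. With normexp and median centring 8 of the 34 probes ran toward labelled TKO and 4 toward labelled J1. Of the 15 probes called above, 8 were still called on the same side there. The 7 that were not are the 3 at Cdkn1c, Cd81 at 693 bp, Igf2 at 83 bp, Phlda2 at -158 bp and Slc22a18 at -833 bp.

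**Figure D5:**
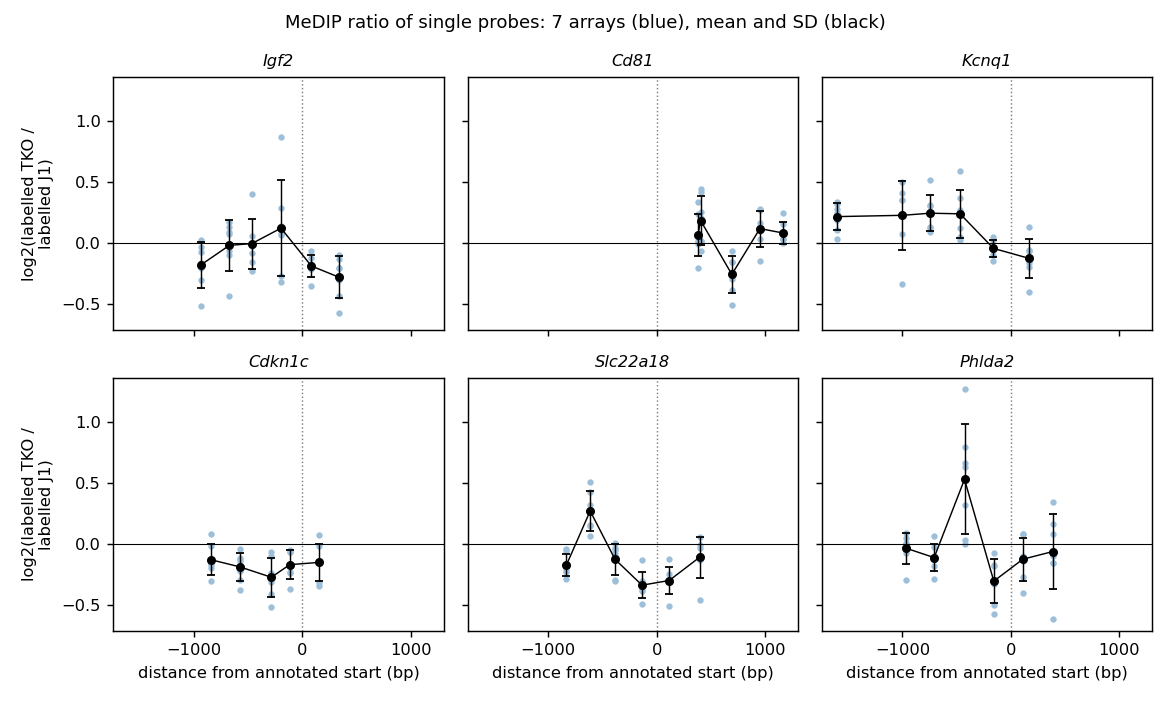
Log2(labelled TKO/labelled J1) of each of the 34 MeDIP probes against its distance from the annotated start in bp, for 6 genes, with the 7 arrays in blue and the mean with SD in black. Kcnq1 stands near 0.24 from -1603 to -469 bp and below 0 at the start, and single upstream probes of Slc22a18 and Phlda2 stand above 0 between probes below 0.

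Regions named for 20 neighbours were on the arrays as well, 19 of them with a probe within 1000 bp of the start, a distance set after the values were seen. Of these 19, 5 ran toward labelled TKO and 4 toward labelled J1 at any size, and 0 reached the size of 0.5. Their means ran from -0.19 at Dhcr7 to 0.30 at Ins2, so the regions of the 6 chosen genes lay inside the span of their neighbours. Kcnq1ot1, whose promoter is a control region, had no region by name and was not analysed there. Ins2, next to Igf2, was above 0 on all 7 arrays, from 0.10 to 0.50, with a mean of 0.30 ± 0.14 (SD, n = 7; limma adjusted p = 3.74e-04). Cars, on the far side of Phlda2, was below 0 on all 7 arrays with a mean of -0.19 ± 0.03 (SD, n = 7; limma adjusted p = 2.02e-04). A set of 5 probes with no gene name lies between Mrpl23 and Igf2 in the file coordinates, the interval that also holds H19. It averaged -0.02 ± 0.13 (SD, n = 7; limma adjusted p = 0.681), with 4 of 7 arrays above 0. The files do not pair these probes with a gene, and they were looked at after their position was seen.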

How the data were processed

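Intensity values came from scanner files of 2-colour Agilent arrays, which the authors made with Agilent Feature Extraction 8.5, as the submitters' processing notes state. Per the file headers, the processed intensity had its background subtracted and its dyes normalised. The authors' deposited tables hold log10 ratios: per MeDIP array, and as a mean over the 3 expression arrays with the swap turned (per the study design text), whose correlation with the fitted log2 ratios was 0.926 across genes.

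For expression, mean and background intensities were corrected with normexp (offset 50) and loess. For MeDIP, log2 ratios of processed signals were centred on each array's median. Control and uneven spots were left out. Ratios were turned to TKO over J1 and tested against 0 with limma 3.58.1 (R 4.3.3) and Benjamini-Hochberg adjustment over all genes, or all regions or probes of both MeDIP parts. A gene needed values on at least 2 arrays and was read by its brightest probe. Expression probes were named through a RefSeq table (32575 of 41174).

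The genes and lists were chosen with earlier results of these data known. All 7 genes and all their probes are named. From the neighbour, growth factor, cell cycle and imprint regulator lists come calls with the largest change (up to 6 each). From imprinted genes elsewhere come the 3 highest and 3 lowest calls, and from each marker list the 2 largest calls. The 3 genes most like Cdkn1c among those with a RefSeq symbol that is not a placeholder name are given, as are the Dnmt genes. Other genes named as not called, and Asz1 and Sycp3, were chosen after their values were seen.

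Both fits were checked on simulated arrays in which 200 features were changed. With a log2 change of 0.5 the expression fit found 35.0% of them among 7289 genes, and with a change of 1 it found 87.0%. That is the number of genes with values on all 3 arrays, below the 11522 tested. These shares may not hold for genes read on 2 arrays, such as Cdkn1c, Phlda2 and Cd81. The MeDIP fit found 57.0% at 0.2 and 99.5% at 0.5 among 14755 regions. Probes carry file coordinates whose build was not stated, so only distances from the start are printed.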

Additional observations from a re-analysis of the deposited data

Results flagged for a closer look

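Of 45 sets of 7 MeDIP arrays examined for a single array that stands apart (6 regions and 34 probes of the imprinted genes and 5 neighbour regions), 1 did. At the Slc22a18 probe 396 bp past the start, array 1 was at -0.457 on the log2(labelled TKO/labelled J1) scale, while the other 6 arrays averaged -0.05 and reached 0.06 at the highest. Chance alone marks about 1 in 20 such sets. The probe did not pass the test (-0.11 ± 0.17, SD, n = 7; limma adjusted p = 0.193).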

How the results depend on the processing

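The RNA calls of Cdkn1c and H19 kept their direction and their side of the threshold under every alternative that gave a test for them. Leaving out each expression array in turn, H19 ran from 1.45 to 2.02 and Igf2 from 0.09 to 0.17. Cdkn1c, Phlda2 and Cd81 could be fitted only without array 3, at 1.81, 0.04 and -0.13, since they rest on arrays 1 and 2, and a dye term could not be fitted for them. Median centring after normexp turned Igf2 to -0.042 (limma adjusted p = 0.958), widened the SD of H19 to 1.06 and gave 358 genes higher and 713 lower, with a median over all genes of -0.11. The second Igf2 probe was at -0.028. A dye term gave 1038 genes higher and 903 lower, and leaving out single arrays gave 906 to 1724 higher and 818 to 1611 lower. Of the neighbours, Dusp8, Ctsd and Tnnt3 were no longer called with median centring (adjusted p = 0.177, 0.842 and 0.426), nor Dusp8 with no filter on dim probes (0.0606). Median centring also ended the calls of Igf2r, Igf1r, Cdkn2c, Impact, Dnmt3l, Dppa3, Zfp57 and Gsc. Agilent processed signals gave ratios over 1.5 times larger for Dusp8, Tnnt3, Igfbp6, Cdkn2c, Zfp57, Afp, Lox, Prl3d1, Dnmt3a and Dnmt3b. Cdkn1b was called lower with them (limma adjusted p = 5.64e-04). Igf1r was not called with the mean of all probes of a gene (limma adjusted p = 0.195).

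For MeDIP, normexp with median centring took Cdkn1c to -0.087 and Slc22a18 to -0.046, short of the threshold, turned Phlda2 to 0.025 and brought Cd81 to 0.10, past it, as normexp with loess did at 0.065. The same setting left 8 of the 34 probes toward labelled TKO and 4 toward labelled J1, and over all regions 2100 and 2373 at any size and 16 and 1 past the size of 0.5. Normexp with loess gave 15 and 1 past that size, and probes well above background in both channels 169 on the labelled TKO side. Leaving out each array in turn, Igf2 ran from -0.10 to -0.070 and Kcnq1 from 0.10 to 0.16, and the regions past the size on the labelled J1 side from 7 to 18. The slide as a random block was not run, since on part 1 only 1 recorded slide code repeats; averaging arrays of one code, chosen after seeing the data, changed no call of these genes and gave 7 regions past the size on the labelled J1 side. The separate test of each expression probe was also chosen after seeing the data. The ratio of each array already pairs the lines. No paired analysis was possible because parts 1 and 2, the groups that share replicate numbers, hold different promoters and are not compared. What made results change was not tested. Dim spots limit Kcnq1 and Slc22a18 in RNA.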
